A study of Mus musculus with 65 samples.

Results

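Chromatin of mouse embryonic stem cells that had been in triptolide was compared at 2 times, using the DNA that was left after newly replicated DNA had been captured. The comparison sets 3 libraries collected 2 h after an EdU pulse (2 h triptolide) against 3 libraries collected right after the pulse (nascent triptolide). These are 6 of the 65 samples of the series, chosen by their labels. The series followed how accessibility returns on new DNA with repli-ATAC-seq, in which cells take up the thymidine analogue EdU, open chromatin is cut and tagged by the transposase Tn5, and the EdU-carrying fragments are then pulled down with streptavidin. All values below come from the other product of that separation, the unbound fraction, which is the supernatant of the pulldown and holds bulk DNA that carried too little EdU to be captured.

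The 2 h triptolide cells were E14TG2a embryonic stem cells of strain 129/Ola (passages 5 to 28) that received triptolide for 2 h, then 20 uM EdU for 10 min, then medium with 10 uM thymidine for 2 h. The nascent triptolide cells received the same triptolide and EdU and were collected without the thymidine chase. Matching pairs of groups received DRB or the solvent DMSO in place of triptolide, with 3 unbound libraries at each time, so that 18 unbound libraries were used in all. Every group was grown on gelatin in 15% serum with LIF, and every group carried EdU. Neither the dose of each drug nor its presence in the chase medium is stated in the sources used here. Whether replicate libraries were made from different cultures is not labelled, and p-values therefore reflect library-to-library spread that may be technical.

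Triptolide binds XPB, the DNA translocase of the initiation factor TFIIH that is encoded by Ercc3, and so blocks the opening of promoter DNA by RNA polymerase II. In cells it also leads to loss of the large polymerase subunit, encoded by Polr2a. DRB inhibits CDK9, the kinase of P-TEFb, and holds polymerase at the pause site just downstream of the start. At active promoters and enhancers, a stretch of DNA without nucleosomes carries transcription factors, Mediator and polymerase, and this stretch is where Tn5 cuts most. Polymerase that has initiated is marked by phosphorylation of its tail at serine 5 (S5P).

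Library depth was 8.69, 3.97 and 13.0 M reads in the 2 h triptolide libraries and 9.90, 8.53 and 14.4 M reads in the nascent triptolide libraries, within 2.35 to 14.4 M reads over the 18. A count of 3 reads, taken as the limit of detection, stood for 0.231 to 0.756 RPM (reads-per-million) in the 2 h triptolide libraries and for 0.209 to 0.352 RPM in the nascent triptolide libraries. The promoters of the stem cell genes Pou5f1, Sox2, Nanog and Zfp42 were open in all 18 libraries, with 4.71 to 11.9, 6.05 to 15.3, 5.04 to 11 and 6.30 to 14.8 RPM. Klf4 had 2.02 to 7.23 RPM, and Esrrb had 0.851 to 2.78 RPM at a transcription start site (TSS) that has no steady-state peak. RPM measures a share of a library, so absolute accessibility was not measured. In bulk samples, fewer cells with a site open and less access per cell cannot be told apart.

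After 2 more hours, bulk chromatin had lost a part of its signal at promoters, at enhancers and at the other accessible sites, and had gained signal between them. The measure was the mean RPM in the 1 kb window on each site. It was taken over 31995 TSSs, over 8794 enhancers, and over 136885 other peaks that lie more than 1000 bp from a TSS and outside the enhancers. At TSSs it was 3.01, 2.74 and 2.96 RPM in the 2 h triptolide libraries, against 3.79, 3.60 and 3.65 RPM in the nascent triptolide libraries. At enhancers it was 3.14, 2.96 and 2.91 RPM at 2 h, against 4.17, 4.26 and 3.51 RPM in nascent. The groups did not overlap in either class, and the 2 h mean was 0.789 of the nascent mean at TSSs and 0.755 at enhancers. With DMSO, TSSs averaged 3.54 RPM at 2 h and 3.79 RPM in nascent, also without overlap (fold 0.934). With DRB, enhancers averaged 4.07 RPM at 2 h and 4.58 RPM in nascent, again without overlap (fold 0.889). TSSs with DRB and enhancers with DMSO overlapped (fold 1.00 each). In triptolide the other peaks, which are mostly distal elements, averaged 2.12 ± 0.024 RPM at 2 h and 2.51 ± 0.093 RPM in nascent (SD, n = 3 each), a fold of 0.846. Background windows, over 1000 bp away from every peak, TSS and enhancer, moved the other way. They averaged 0.220 ± 0.0020 RPM in the 2 h triptolide libraries and 0.185 ± 0.0059 RPM in the nascent triptolide libraries (SD, n = 3 each), a fold of 1.19. They held 42.3%, 42.8% and 43.0% of all reads at 2 h, against 34.7%, 36.0% and 37.0% in nascent, and the highest share among the other 15 unbound libraries was 40.0%.

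Signal over background, the ratio of both means within a library, does not depend on depth scaling. For TSSs it was 13.9, 12.4 and 13.4 in the 2 h triptolide libraries, against 21.2, 19.5 and 19.2 in the nascent triptolide libraries. Each of the 3 later libraries lay below all other 15 unbound libraries, which ranged from 16.2 to 22.6. The fold was 0.663, and the two-sided exact permutation p was 0.1, the smallest that 3 libraries against 3 can give. With DRB the ratio was 18 ± 2.5 at 2 h and 18.7 ± 1.4 in nascent (fold 0.965, exact permutation p = 0.7, n = 3 each), and with DMSO it was 19.8 ± 2.0 and 21.8 ± 0.67 (fold 0.907, exact permutation p = 0.3). In this ratio the DRB and DMSO groups overlapped in time where the triptolide groups did not. The difference between the treatments in this ratio was not tested.

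Enhancers stood lower by the same measure. The enhancer ratio was 14.5, 13.5 and 13.2 at 2 h triptolide, against 23.4, 23.0 and 18.4 in nascent triptolide (fold 0.634, exact permutation p = 0.1), and the other 15 libraries ranged from 18.4 to 29.9. It was 20.9 ± 2.4 at 2 h and 24.5 ± 2.1 in nascent with DRB (fold 0.854, exact permutation p = 0.2, n = 3 each), and 27.4 ± 2.2 and 28.2 ± 0.75 with DMSO (fold 0.973, exact permutation p = 0.6). In the nascent libraries this ratio averaged 21.6 ± 2.8 with triptolide. For the other peaks the ratio was 9.90, 9.59 and 9.54 at 2 h triptolide, against 14.5, 13.8 and 12.6 in nascent triptolide (fold 0.710, exact permutation p = 0.1). The folds of that ratio were 0.913 with DRB and 0.956 with DMSO.

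**Figure D1:**
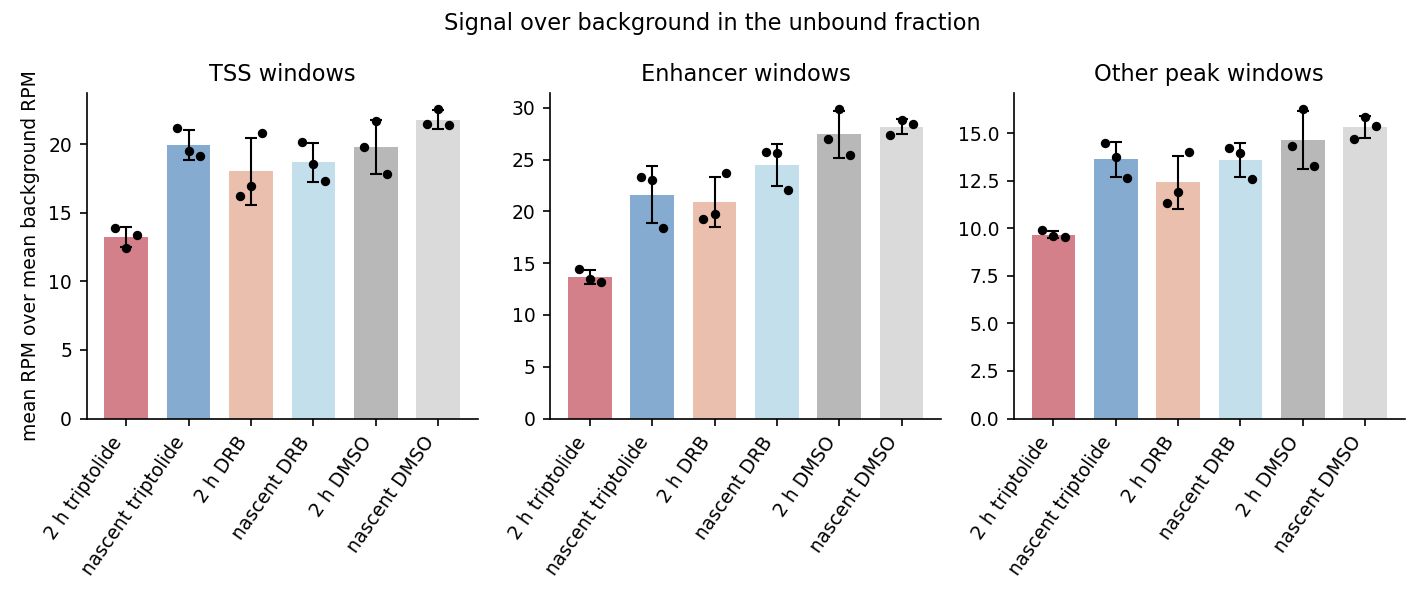
Ratio of mean RPM at sites to mean RPM at background windows in the 18 unbound libraries, for TSS, enhancer and other peak windows; bars are means of 3 libraries, error bars are 1 SD and dots are libraries. The 2 h triptolide libraries lie between 12.4 and 13.9 at TSSs and between 13.2 and 14.5 at enhancers, below every other library in each panel.

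The loss was centred on the start site. At 3164 isolated TSSs that carry an S5P peak, the window on the TSS had 6.15 ± 0.38 RPM in the 2 h triptolide libraries and 8.13 ± 0.24 RPM in the nascent triptolide libraries (SD, n = 3 each), a fold of 0.757. The fold was 0.760 at 500 bp upstream and 0.793 at 500 bp downstream. It was 0.847 at 1000 bp upstream and 0.857 at 1000 bp downstream. At 3000 bp downstream, inside most of these genes, the signal was 1.04 ± 0.019 RPM at 2 h and 1.03 ± 0.012 RPM in nascent, a fold of 1.01. The ratio of signal 2500 bp downstream to that 2500 bp upstream was 1.18, 1.12 and 1.16 at 2 h triptolide, against 1.14, 1.11 and 1.10 in nascent triptolide. These groups overlapped (exact permutation p = 0.2). With DRB the same ratio was 1.23 ± 0.010 at 2 h and 1.20 ± 0.018 in nascent, and with DMSO it was 1.09 ± 0.045 and 1.04 ± 0.0075 (SD, n = 3 each), without overlap in either pair (exact permutation p = 0.1 each).

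**Figure D2:**
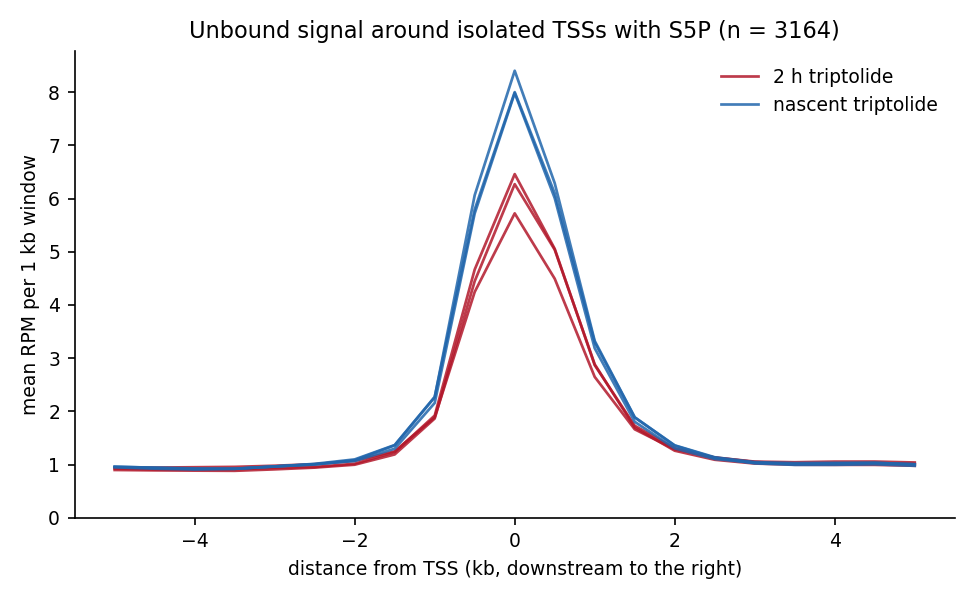
Mean RPM per 1 kb window against distance from the TSS in kb, over 3164 isolated TSSs with S5P, 1 line per triptolide library. The nascent libraries reach 8.13 RPM and the 2 h libraries 6.15 RPM at the TSS, and the lines run together from 2500 bp downstream.

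Promoters that carried S5P polymerase in the deposited peak list of total chromatin had more signal than S5P-free promoters at both times, but by a smaller margin later. The mean log2(RPM + 1) at TSSs with S5P minus that at TSSs without was 1.5, 1.37 and 1.44 in the 2 h triptolide libraries, against 1.73, 1.68 and 1.63 in the nascent triptolide libraries. The groups did not overlap, and the difference was −0.24 (exact permutation p = 0.1). This scale understates changes at low windows, and the median level was 6.80 RPM with S5P and 0.655 RPM without. In mean RPM the 2 treatment times were closer between the classes, with a fold of 0.755 with S5P and 0.809 without. The same margin changed by −0.02 with DRB (exact permutation p = 0.6) and by −0.09 with DMSO, where the groups did not overlap either (exact permutation p = 0.1).

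Tested window by window with limma on log2(RPM + 1) over all 18 libraries, with Benjamini-Hochberg adjustment at 0.05, 3232 of 30309 TSS windows were lower at 2 h than in nascent triptolide (10.7%) and 163 were higher (0.538%). At enhancers, 1537 of 8783 windows were lower (17.5%) and 27 were higher (0.307%). Among other peaks, 3579 of 136885 windows were lower (2.61%) and 107 were higher (0.0782%). The median change was −0.13 at TSSs, −0.24 at enhancers and −0.15 at other peaks. Over the same 2 h, DMSO gave 0 called TSS windows (0.0%) with limma, with 2180 at an unadjusted p under 0.05 and also 0 with limma-voom on recovered reads. DRB gave 2 TSS windows that were lower (0.0066%) and 1 that was higher (0.0033%) with limma, and 6 in all with limma-voom. The triptolide counts rest in part on the shared spread of 18 libraries. Fitted on the 6 triptolide libraries alone, limma called 0 TSS windows, with 7154 at an unadjusted p under 0.05, while 913 enhancers and 3432 other peaks still passed.

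Scaling and single libraries both moved these counts. Centring each library on its median window moved the median change to −0.03 at TSSs, 0.00 at enhancers and −0.01 at other peaks, and scaling to background windows moved it to −0.25, −0.40 and −0.29. After centring, 938 TSS windows were lower (3.09%) and 204 higher (0.673%), so that 82.1% of calls were lower in place of 95.2%. For enhancers the centred calls were 217 lower (2.47%) and 102 higher (1.16%), or 68.0% lower in place of 98.3%. For other peaks they were 306 lower (0.224%) and 96 higher (0.0701%), or 76.1% lower in place of 97.1%. Scaled to background windows, 8917 TSS windows, 3326 enhancers and 18061 other peaks were called. TSS calls numbered 1197 without 2 h triptolide replicate 2, the shallowest of the 6, 956 without nascent triptolide replicate 1 and 2116 without nascent triptolide replicate 2. Enhancer calls numbered 994, 762 and 808 without the same 3 libraries. Other peak calls numbered 1168, 754 and 793 without them and 2237 without 2 h triptolide replicate 3.

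How much a window fell followed how open it was. TSS windows with a mean over 20 RPM averaged 18.1 ± 0.44 RPM at 2 h triptolide and 25.2 ± 0.83 RPM in nascent triptolide (SD, n = 3 each), a fold of 0.717, and 188 of 230 were called lower (81.7%). The called share was 53.1% at 10 to 20 RPM, 22.5% at 5 to 10 RPM, 4.48% at 2 to 5 RPM, 0.411% at 1 to 2 RPM and 0.138% under 1 RPM. The median change in these classes was −0.46, −0.41, −0.33, −0.21, −0.06 and 0.02 on the log2(RPM + 1) scale, which understates the changes of low windows. With DMSO the median change stayed between −0.11 and 0.02 in every class. Enhancers ran the same course, with 77.5% called lower over 20 RPM, 54.8% at 10 to 20 RPM, 32.3% at 5 to 10 RPM and 13.9% at 2 to 5 RPM. At other peaks the share was 56.5% over 20 RPM and 32.6% at 10 to 20 RPM. Level was taken over all 18 libraries, and a given fold is easier to call in a window with more reads.

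**Figure D3:**
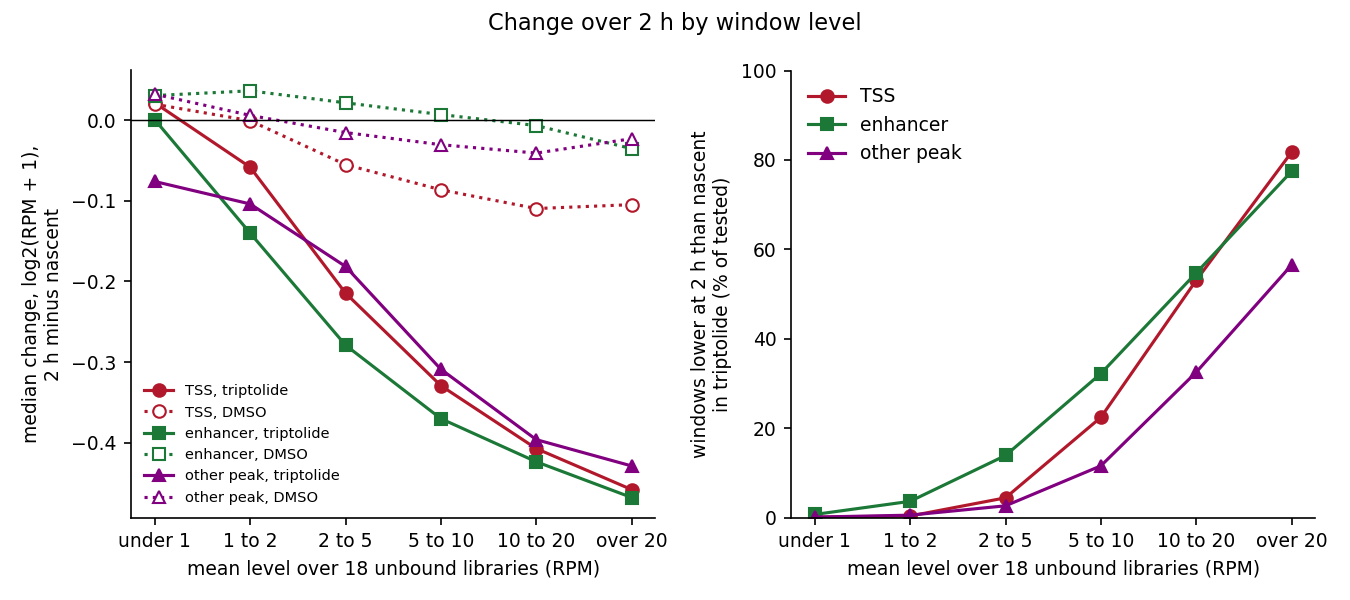
Left, median change from nascent to 2 h in log2(RPM + 1) for TSS, enhancer and other peak windows in 6 classes of mean level, for triptolide (filled) and DMSO (open); right, the share of tested windows called lower in triptolide. In triptolide the TSS median goes down to −0.46 and the called share reaches 81.7% in windows over 20 RPM, while the DMSO medians stay near 0.

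With S5P, 1497 of 5490 TSS windows were lower (27.3%), with a median change of −0.34. Without S5P, 1735 of 24819 were lower (6.99%), with a median of −0.07. Windows with S5P are more open, with a median level of 6.80 RPM against 0.655 RPM without S5P. At like level the shares lay closer together, at 82.8% with S5P and 80.4% without over 20 RPM, at 54.3% and 52.0% between 10 and 20 RPM, and at 26.0% and 20.1% between 5 and 10 RPM. The difference between the S5P classes was not tested.

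The time at which a site first appears on newly replicated DNA sorted the windows too. Of TSS windows already in the authors' nascent peak list of newly replicated DNA, 2883 of 10752 were lower in 2 h triptolide (26.8%). The share was 9.25% for those first listed 30 min after replication, 3.34% at 1 h, 1.11% at 2 h and 0.285% for those in the steady-state list only. Of 163 TSS windows called higher, 148 lay in no peak list. That class held 12736 of the 30309 tested windows, and 1.16% of it was higher. Enhancers gave 38.9% for the nascent list, 21.7% for 30 min, 13.0% for 1 h, 6.08% for 2 h and 2.02% for steady state only. Early-listed sites are also the more open ones, with a median of 6.86 RPM at nascent-list TSSs and 2.36 RPM at those first listed at 2 h.

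Among named genes, each paired with 1 TSS, 3137 of 25092 were lower (12.5%) and 102 higher (0.407%). Dlst, which encodes the E2 subunit of the mitochondrial 2-oxoglutarate dehydrogenase complex, had the largest fall. Its window at chr12:85110501-85111500 held 2.88, 1.01 and 3.63 RPM in the 2 h triptolide libraries, against 6.87, 5.39 and 5.57 RPM in the nascent triptolide libraries. The log2 change was −1.07 ± 0.21 (SE, limma adjusted p = 0.0017). Dot1l, the histone H3 lysine 79 methyltransferase linked to elongation, had 3.45, 4.28 and 2.70 RPM at 2 h, against 8.68, 7.15 and 6.75 RPM in nascent (log2 change −0.94, adjusted p = 0.0010). Cfl1, the actin-severing protein cofilin, had 2.07, 1.76 and 2.47 RPM at 2 h, against 5.65, 4.34 and 4.80 RPM in nascent (log2 change −0.94, adjusted p = 0.000765). Lack of overlap between the times was a condition for naming these genes, so it adds no support.

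Promoters of the largest falls and the largest rises are printed here to show their CpG content, which varied among the falls. Of the 10 largest falls with a RefSeq promoter, the number of CG dinucleotides ran from 0 to 49, and of the 8 largest rises with one, from 1 to 9. Each is the 300 bases from 250 before to 50 after the RefSeq start on GRCm38.p6, written 5′ to 3′ on the strand of the gene, with every CG dinucleotide in capitals. The promoters that fell are those of Dlst (chr12:85110583-85110882, plus strand, 28 CG), Dot1l (chr10:80754953-80755252, plus strand, 49 CG), Cfl1 (chr19:5490205-5490504, plus strand, 22 CG) and, as the fall with the fewest, Gm16249 (chr13:54783042-54783341, minus strand, 0 CG). Those that rose are Ifna13 (chr4:88644410-88644709, minus strand, 1 CG), Hpgds (chr6:65144681-65144980, minus strand, 5 CG) and Trpv2 (chr11:62574236-62574535, plus strand, 2 CG).
Dlst: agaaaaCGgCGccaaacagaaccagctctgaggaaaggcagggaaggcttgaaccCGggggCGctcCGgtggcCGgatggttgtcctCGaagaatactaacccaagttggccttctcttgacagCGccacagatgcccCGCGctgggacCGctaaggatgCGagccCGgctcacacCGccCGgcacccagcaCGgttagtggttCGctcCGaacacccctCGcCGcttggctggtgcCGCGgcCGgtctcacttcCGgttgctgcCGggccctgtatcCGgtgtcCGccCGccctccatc
Dot1l: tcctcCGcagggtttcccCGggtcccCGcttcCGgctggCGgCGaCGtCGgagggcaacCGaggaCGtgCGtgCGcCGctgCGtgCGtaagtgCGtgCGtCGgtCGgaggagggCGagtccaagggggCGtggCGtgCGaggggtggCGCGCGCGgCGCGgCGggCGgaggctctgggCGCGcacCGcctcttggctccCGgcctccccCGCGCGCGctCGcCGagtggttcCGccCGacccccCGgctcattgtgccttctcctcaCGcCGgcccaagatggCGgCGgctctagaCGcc
Cfl1: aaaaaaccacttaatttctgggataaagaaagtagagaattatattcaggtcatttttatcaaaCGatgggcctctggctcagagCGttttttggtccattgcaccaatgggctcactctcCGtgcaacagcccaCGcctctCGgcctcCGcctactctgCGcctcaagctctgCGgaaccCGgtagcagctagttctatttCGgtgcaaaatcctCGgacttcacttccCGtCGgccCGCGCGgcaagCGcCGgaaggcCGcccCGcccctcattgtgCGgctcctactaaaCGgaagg
Gm16249: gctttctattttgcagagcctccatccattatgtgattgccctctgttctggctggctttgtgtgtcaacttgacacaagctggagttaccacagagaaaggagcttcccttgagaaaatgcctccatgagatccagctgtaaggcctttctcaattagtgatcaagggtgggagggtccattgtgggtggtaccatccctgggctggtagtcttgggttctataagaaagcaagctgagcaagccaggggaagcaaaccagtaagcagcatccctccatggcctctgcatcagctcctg
Ifna13: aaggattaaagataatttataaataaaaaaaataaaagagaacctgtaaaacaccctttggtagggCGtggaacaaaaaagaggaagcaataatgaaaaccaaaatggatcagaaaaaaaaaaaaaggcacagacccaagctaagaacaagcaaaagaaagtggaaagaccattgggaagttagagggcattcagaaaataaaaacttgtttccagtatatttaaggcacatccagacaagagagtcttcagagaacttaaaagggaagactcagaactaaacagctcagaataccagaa
Hpgds: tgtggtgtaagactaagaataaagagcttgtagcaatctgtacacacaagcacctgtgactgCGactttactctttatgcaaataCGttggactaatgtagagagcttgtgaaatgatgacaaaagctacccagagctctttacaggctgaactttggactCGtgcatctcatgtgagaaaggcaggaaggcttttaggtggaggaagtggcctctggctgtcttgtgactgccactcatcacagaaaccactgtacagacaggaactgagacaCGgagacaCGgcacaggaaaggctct
Trpv2: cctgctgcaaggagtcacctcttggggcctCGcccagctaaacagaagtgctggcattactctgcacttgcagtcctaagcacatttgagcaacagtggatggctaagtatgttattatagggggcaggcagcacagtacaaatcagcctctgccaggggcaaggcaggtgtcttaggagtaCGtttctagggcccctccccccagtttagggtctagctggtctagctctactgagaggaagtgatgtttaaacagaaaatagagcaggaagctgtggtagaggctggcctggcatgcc

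Of the tested genes, 15702 had a RefSeq promoter. The median number of CG dinucleotides was 22 in the 2426 promoters that were lower, 3 in the 51 that were higher and 15 in all. The GC box GGGCGG, searched on both strands, was in 71.9% of promoters that were lower, 7.84% of those higher and 49.3% of all. The ETS core CCGGAAG was in 21.8%, 1.96% and 12.6%. CCAAT was in 50.7%, 49.0% and 38.6%, and the TATA box TATAAA was in 5.52%, 19.6% and 12.8%. Motifs were searched one by one and may overlap each other, and a match is a description of the letters. Promoters that were lower are also the more open ones, with a median level of 9.91 RPM against 4.09 RPM for all. Those that were higher had a median level of only 0.391 RPM. Motif shares were not compared at like level, so direction and level cannot be told apart in them. Among promoters of 5 to 10 RPM, 25.0% were lower with 0 to 4 CG, 21.9% with 5 to 14 and 23.4% with 15 or more. At 10 to 20 RPM the shares were 34.8%, 46.0% and 56.1%, the first of 23 promoters only.

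The other 9 of the 12 largest falls were Cd1d2, 4930481A15Rik, Dctn3, Stmn4, Gm16249, Nol12, Snhg16, Znrd2 and Zfand3, with log2 changes of −1.01 to −0.91. Zfand3, a zinc finger gene, had 3.11, 2.27 and 2.24 RPM at 2 h triptolide, against 6.26, 4.45 and 6.34 RPM in nascent triptolide (adjusted p = 0.0022). Snhg16, a host gene of small nucleolar RNAs that shares its window with Snord1c, had 4.95, 1.76 and 3.70 RPM at 2 h, against 8.38, 7.03 and 5.92 RPM in nascent (adjusted p = 0.0014). Gm16249, a long noncoding RNA gene whose promoter holds 0 CG, had 2.88, 2.52 and 2.78 RPM at 2 h, against 6.77, 6.09 and 5.43 RPM in nascent (log2 change −0.93, adjusted p = 4.4e-04). The calls of Nol12 (adjusted p = 0.0114, and 0.203 without it) and Dctn3 (0.0035, and 0.063 without it) were lost without 2 h triptolide replicate 2.

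The 12 largest rises started from low levels. Ifna13, an interferon alpha gene, had 7.02, 8.82 and 7.02 RPM in the 2 h triptolide libraries, against 2.32, 1.99 and 3.20 RPM in the nascent triptolide libraries. The log2 change was 1.31 ± 0.21 (SE, limma adjusted p = 4.4e-04). Lack of overlap was a condition for naming these rises. With DRB its window had 6.74, 6.5 and 8.34 RPM at 2 h, against 2.49, 1.79 and 1.94 RPM in nascent (log2 change 1.41, adjusted p = 5.7e-04). With DMSO it had 2.33, 1.92 and 1.80 RPM at 2 h, against 1.35, 0.425 and 1.23 RPM in nascent (log2 change 0.62, adjusted p = 0.61). The change in triptolide did not pass the test against the change in DMSO (0.68, adjusted p = 0.36) or in DRB (−0.11, adjusted p = 0.90). Interferon alpha genes lie in a cluster of near-identical copies, and the sources used here do not state how reads that map to several places were counted, so this window is uncertain.

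Hpgds, which encodes a prostaglandin D synthase, had 3.22, 2.27 and 2.85 RPM at 2 h triptolide, against 0.808, 0.820 and 1.04 RPM in nascent triptolide (log2 change 0.99, adjusted p = 0.0037). Trpv2, a cation channel gene, had 1.96, 3.02 and 1.85 RPM at 2 h, against 0.808, 0.352 and 0.766 RPM in nascent (log2 change 0.99, adjusted p = 0.0039). Neither window lies in a peak of any list. Trim40, a ubiquitin ligase gene of the tripartite motif family, had 1.73, 1.51 and 1.31 RPM at 2 h, against 0.707, 0.352 and 0.418 RPM in nascent (log2 change 0.76, adjusted p = 0.0060). The remaining rises were Gm23412, Gm24942, Mir3062, LOC115487269, Rnase10, Gm38467, Fam47e and Urad, with log2 changes of 0.73 to 0.94. Fam47e was the most open of these, at 5.41, 6.30 and 7.18 RPM at 2 h, against 3.53, 2.34 and 4.39 RPM in nascent (adjusted p = 0.0137). With DRB Fam47e had 5.09, 7.47 and 7.57 RPM at 2 h, against 3.22, 3.32 and 4.50 RPM in nascent (adjusted p = 0.48), and with DMSO it stayed at or under 2.07 RPM in all 6 libraries. The calls of Mir3062, LOC115487269, Rnase10, Gm38467, Fam47e and Urad were each lost when 1 library was left out, with adjusted p up to 0.277.

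**Figure D4:**
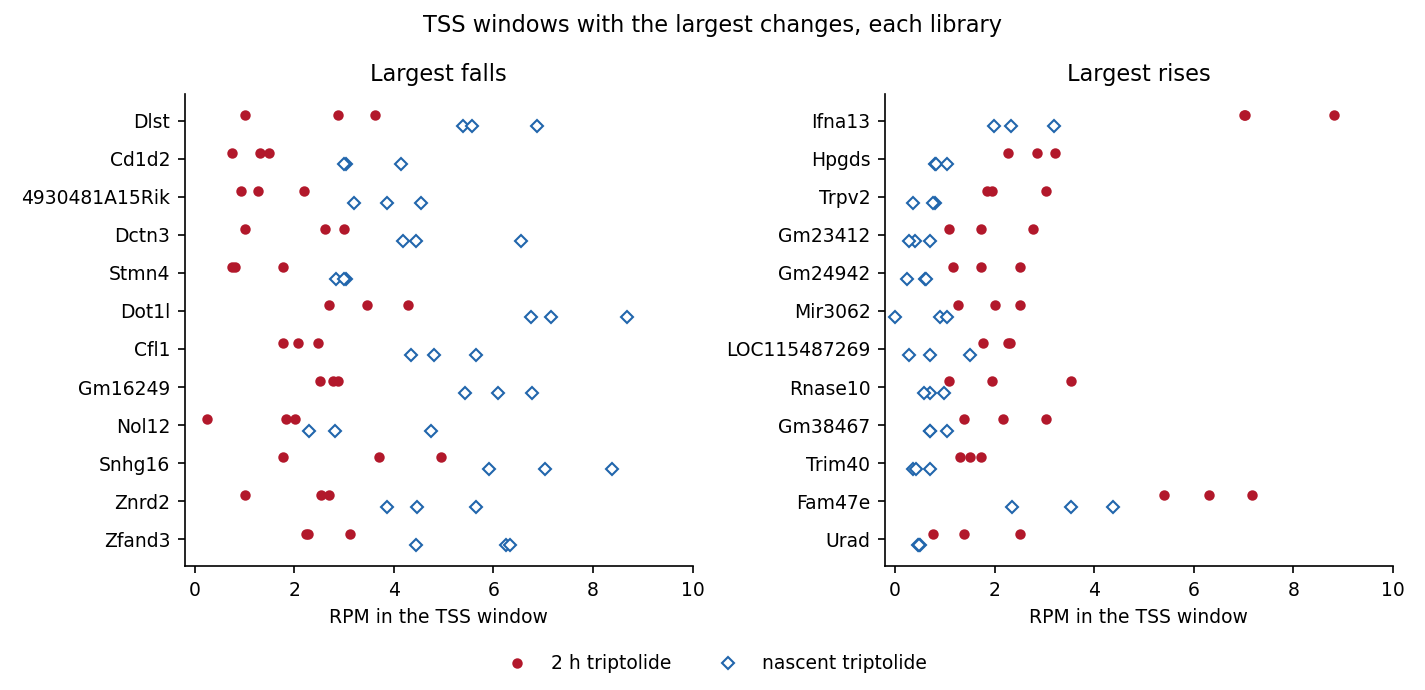
RPM in the TSS window of the 12 genes with the largest falls (left) and the 12 with the largest rises (right), with 1 point per library, filled for 2 h triptolide and open for nascent triptolide. The colours do not overlap in any row, since the genes were chosen that way; Dlst lies between 1.01 and 3.63 RPM at 2 h, against 5.39 to 6.87 RPM in nascent, and Ifna13 between 7.02 and 8.82 RPM, against 1.99 to 3.20 RPM.

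Gene lists are described here by how many members passed, beside 12.5% of all named genes, whose median change was −0.16. Of the 25092 tested named genes, 18154 were below 0, so a list with most members below 0 is not unusual. The median member had 3.08 RPM in nascent triptolide among all named genes, 6.92 among pluripotency genes and 8.48 among immediate early genes. It had 9.68 RPM among p53 targets, 8.83 among replication fork genes and 4.24 among Polycomb-bound regulators. Of all TSS windows, 4.48% were lower at 2 to 5 RPM, 22.5% at 5 to 10 RPM and 53.1% at 10 to 20 RPM. Lists were not tested against genes of like level. No list had a member whose change passed the test against the DMSO change. Only 6 of 25092 named genes passed it, so the lack of such members says nothing particular about the lists. Of 32 tested pluripotency genes 10 were lower and 0 higher, with a median change of −0.32, and 28 of 32 were below 0. The summed signal of the list was 180 to 191 RPM in the 2 h triptolide libraries, against 237 to 248 RPM in the nascent triptolide libraries. Klf2, a naive pluripotency factor, had 10.2, 6.80 and 8.49 RPM at 2 h, against 12.3, 12.7 and 13.4 RPM in nascent (log2 change −0.55, adjusted p = 0.0067). Trim28, a corepressor of endogenous retroviruses that shares its window with Gm31649, had 9.21, 11.6 and 10.2 RPM at 2 h, against 14.1, 16.5 and 14.8 RPM in nascent (log2 change −0.51, adjusted p = 0.0068). Fgf4, the growth factor of the epiblast, was lower by the same test (log2 change −0.59, adjusted p = 0.0089).

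The core factor Sox2 had 7.37, 6.05 and 6.94 RPM at 2 h triptolide, against 9.90, 10.7 and 8.42 RPM in nascent triptolide (log2 change −0.45, adjusted p = 0.031). Nanog had 6.10, 5.04 and 5.94 RPM at 2 h, against 7.47, 9.02 and 7.73 RPM in nascent (log2 change −0.44, adjusted p = 0.038). Both were lower in every 2 h library, and both calls were lost without 2 h replicate 2 and after centring (adjusted p = 0.131 for Sox2 and 0.145 for Nanog when centred). Pou5f1 had 4.72, 6.05 and 4.71 RPM at 2 h, against 5.45, 7.85 and 8.35 RPM in nascent, with overlap (log2 change −0.41, adjusted p = 0.10). Klf2 and Fgf4 also lost their calls without 2 h replicate 2 (adjusted p = 0.081 and 0.087), and Trim28 lost its call after centring (adjusted p = 0.052).

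Replication genes held the largest share of members that passed. Of 25 genes of the MCM helicase, the GINS complex and other fork proteins, 14 were lower, all 25 were below 0, and the median change was −0.48. The median member had 6.43 ± 0.33 RPM in the 2 h triptolide libraries and 8.83 ± 0.77 RPM in the nascent triptolide libraries (SD, n = 3 each). Pcna, the sliding clamp, had 4.03, 5.29 and 5.32 RPM at 2 h, against 9.29, 8.20 and 7.45 RPM in nascent (log2 change −0.67, adjusted p = 0.0020). Gins2 had 9.67, 11.1 and 8.87 RPM at 2 h, against 18.3, 15.0 and 14.6 RPM in nascent (log2 change −0.64, adjusted p = 0.0042). Chaf1a, the large subunit of the histone chaperone CAF-1, had 5.76, 6.05 and 6.79 RPM at 2 h, against 9.09, 11.6 and 9.89 RPM in nascent (log2 change −0.63, adjusted p = 0.0036). All 3 windows were lower in every 2 h library, but they were named for the smallest p in the list, so this adds no support. With DMSO Pcna had 8.55, 10.7 and 9.32 RPM at 2 h, against 13.8, 13.2 and 12.5 RPM in nascent. These DMSO groups did not overlap either, but the change did not pass (log2 change −0.43, limma adjusted p = 0.58). Of 24 cyclin, CDK and E2F genes 9 were lower, among them Cdk4 (log2 change −0.64, adjusted p = 0.0052), E2f8 (−0.54, 0.0049) and Ccnb1 (−0.50, 0.020). Of 58 replication-dependent histone genes, some of which share windows and sequence, 18 were lower, with a median of −0.32. Among them H4c14 had 4.95, 4.54 and 5.17 RPM at 2 h, against 8.68, 8.32 and 7.03 RPM in nascent (log2 change −0.61, adjusted p = 0.0035). With DRB the median change was −0.36 for the histone genes, −0.09 for the fork genes and −0.05 for the cyclin, CDK and E2F genes. With DMSO these medians were −0.07, −0.15 and −0.10, so the histone genes were at least as low with DRB as with triptolide. Without nascent triptolide replicate 1 the calls of Gins2 and Cdk4 were lost (adjusted p = 0.0502 and 0.068), and without 2 h triptolide replicate 2 that of Ccnb1 (adjusted p = 0.12).

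Lists of genes of the transcription machinery itself had similar median changes but differed in the share called. Of 21 pause release genes 9 were lower, and all 21 were below 0, with a median of −0.29. They include Ell2, an elongation factor of the super elongation complex, with 16.3, 18.7 and 19.0 RPM at 2 h, against 24.1, 25.1 and 26.4 RPM in nascent (log2 change −0.47, adjusted p = 0.0099). Hexim1, the inhibitor of P-TEFb, and Ccnk, the cyclin of CDK12, passed too (log2 changes −0.54 and −0.61, adjusted p = 0.0057 and 0.0047). Cdk9, the target of DRB, had 4.37, 5.04 and 4.17 RPM at 2 h triptolide, against 7.88, 6.56 and 7.10 RPM in nascent triptolide (log2 change −0.57, adjusted p = 0.012). Of 9 TFIIH genes 2 were lower, Gtf2h5 (log2 change −0.67, adjusted p = 0.013) and Ccnh (−0.54, 0.042), and both calls were lost without 2 h replicate 2. Ercc3, which encodes the triptolide target XPB, had 4.49, 4.28 and 3.63 RPM at 2 h, against 5.96, 4.92 and 4.94 RPM in nascent, without overlap (log2 change −0.29, adjusted p = 0.28). Of 13 polymerase II subunit genes 1 was lower, Polr2i (log2 change −0.54, adjusted p = 0.020), and Polr2a had 4.37, 3.53 and 4.01 RPM at 2 h, against 6.26, 4.34 and 3.48 RPM in nascent (log2 change −0.17, adjusted p = 0.59). Of 20 other general initiation factor genes 4 were lower. The median change was −0.29 for TFIIH genes (9 of 9 below 0) and −0.30 for polymerase II subunit genes (12 of 13). It was −0.28 for the other general initiation factor genes (18 of 20). The calls of Cdk9, Hexim1 and Polr2i were lost without nascent triptolide replicate 1 and that of Ccnk without 2 h triptolide replicate 2, and Ell2 lost its call after centring (adjusted p = 0.077).

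Some stress and signal-response promoters were lower. Of 23 immediate early genes 8 were lower and 0 higher (median −0.39). Jun had 10.0, 8.07 and 10.4 RPM at 2 h triptolide, against 13.7, 13.8 and 17.1 RPM in nascent triptolide (log2 change −0.60, adjusted p = 0.0031), and its partner Fos had 7.25, 3.53 and 4.71 RPM, against 10.1, 7.26 and 9.40 RPM (log2 change −0.72, adjusted p = 0.0052, and 0.076 without 2 h replicate 2). Myc did not pass, at 11.5, 12.6 and 12.3 RPM at 2 h, against 14.8, 16.2 and 17.1 RPM in nascent (log2 change −0.37, adjusted p = 0.065). Of 23 p53 targets 7 were lower and 0 higher. Gadd45a, a growth arrest gene, had 18.7, 19.2 and 22.5 RPM at 2 h, against 26.8, 31.6 and 29.1 RPM in nascent (log2 change −0.52, adjusted p = 0.0052), and Ddb2, of nucleotide excision repair, had 8.75, 7.06 and 9.95 RPM, against 14.4, 14.2 and 13.4 RPM (log2 change −0.66, adjusted p = 0.0015). Of 19 heat shock and chaperone genes 5 were lower. Of 18 apoptosis regulators 3 were lower (16.7%, median −0.18), a share near that of all named genes, among them the antiapoptotic Bcl2l1, with 10.5, 9.07 and 11.4 RPM at 2 h, against 17.0, 18.5 and 17.8 RPM in nascent (log2 change −0.73, adjusted p = 8.5e-04). The median changes of the immediate early, p53, heat shock and apoptosis lists were −0.39, −0.33, −0.39 and −0.18 in triptolide. With DMSO they were −0.13, −0.10, −0.18 and −0.15. None of these 4 lists held a member that was higher, which is near the share of all named genes (0.407%).

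Housekeeping and structural genes followed with smaller shares. Of 82 ribosomal protein genes 15 were lower (median −0.28) and of 26 housekeeping genes 5 (median −0.33), while Actb had 3.68, 2.77 and 3.01 RPM at 2 h triptolide, against 4.24, 4.34 and 5.01 RPM in nascent triptolide (log2 change −0.42, adjusted p = 0.11). Of 65 tested polymerase III genes, most of them tRNA genes that can share sequence or windows with other genes, 13 were lower (20.0%, median −0.27). The 3 of them with the lowest p lie in windows shared with the protein-coding genes Fbxo31, Prmt5 and Fcgr3, so the signal cannot be given to one or the other. Of 12 polymerase II small nuclear RNA genes 1 was lower. Polycomb-bound developmental regulators had 2 of 69 lower, Wt1 and Six6, with a median of −0.20.

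Promoters of olfactory receptor genes stayed at low levels. Of 1023 olfactory receptor genes 3 were lower and 6 higher, and their median change was 0.01. The median turned to 0.10 after centring and to −0.01 when scaled to background. The 3 receptors with the smallest p, Olfr1128, Olfr48 and Olfr1511, were near the limit of detection, with Olfr1128 at 0.461, 0.756 and 0.540 RPM at 2 h triptolide, against 0.202, 0 and 0.0696 RPM in nascent triptolide. Among markers of other cells, 0 of 13 were called in primitive endoderm and 1 of 7 in trophectoderm (Tead4, 14.3%). It was 1 of 11 in fibroblasts (Fn1, 9.09%) and 1 of 12 in neural and germ layers (Neurod1, 8.33%), all lower. Among all named genes 12.5% were lower, and no difference from that share was tested. The median member of these lists had 3.40, 4.65, 2.67 and 5.61 RPM in nascent triptolide, against 3.08 RPM for all named genes. In the same order, the median changes were −0.14, −0.27, −0.17 and −0.30 in triptolide. With DMSO they were −0.14, 0.02, −0.06 and −0.06, so the primitive endoderm list moved alike in both. The summed primitive endoderm signal was 39.8 to 47.4 RPM at 2 h, against 49.2 to 54.0 RPM in nascent, and the endoderm factor Gata4 had 0.691, 0.756 and 0.231 RPM at 2 h, against 0.505, 0 and 0.348 RPM in nascent. Fibroblast markers summed to 36.5 to 37.8 RPM at 2 h, against 43.7 to 47.1 RPM in nascent, trophectoderm markers to 25.0 to 29.7 RPM, against 33.2 to 38.8 RPM, and neural and germ layer markers to 46.4 to 57.0 RPM, against 59.3 to 71.7 RPM. Markers of the 2-cell-like state had 0 of 8 called and summed to 1.01 to 2.01 RPM at 2 h, against 2.46 to 2.52 RPM in nascent, with Zscan4e listed at 0, 0 and 0.231 RPM at 2 h. Their median change was −0.04, and 0.05 after centring. The part of other cell types in the results was not tested.

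**Figure D5:**
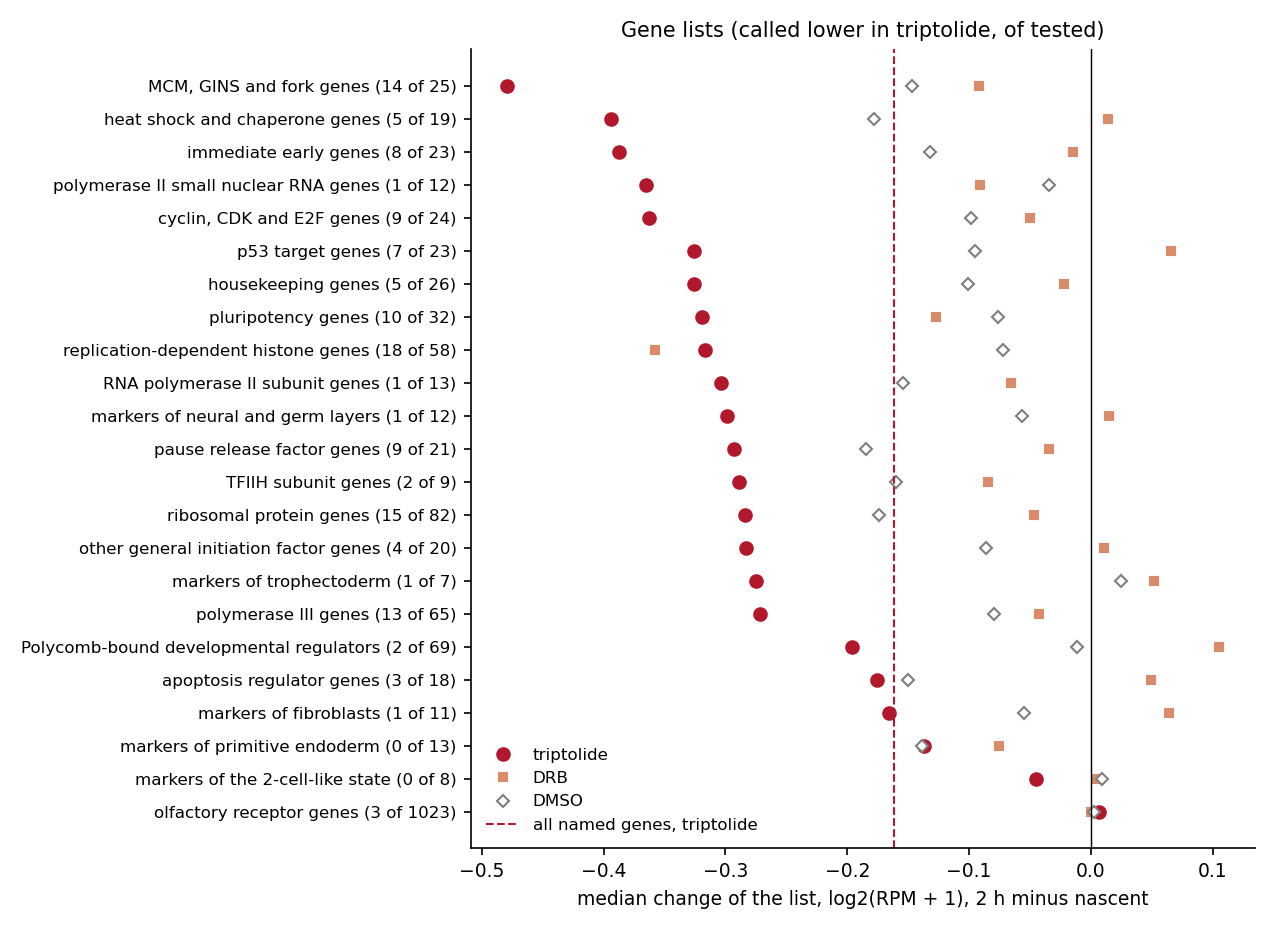
Median change of each gene list from nascent to 2 h in log2(RPM + 1), for triptolide, DRB and DMSO, with the number of members called lower in triptolide beside each name; the dashed line is the triptolide median of all named genes. The genes of the MCM helicase, GINS and the fork have the lowest triptolide median at −0.48, and olfactory receptor genes lie at 0.01.

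The 4 largest enhancer falls had log2 changes of −1.37 to −1.20. The window at chr12:39740501-39741500 had 2.65, 1.26 and 3.55 RPM in the 2 h triptolide libraries, against 8.99, 9.84 and 5.01 RPM in the nascent triptolide libraries (log2 change −1.37 ± 0.19 SE, adjusted p = 1.8e-06). With DMSO the same window had 14.0, 12.8 and 11.4 RPM at 2 h, against 11.1, 13.2 and 12 RPM in nascent, and its change in triptolide was lower than that in DMSO (difference −1.45, adjusted p = 0.0012). The window at chr13:102106001-102107000 had 1.96, 2.77 and 2.47 RPM at 2 h triptolide, against 7.98, 7.50 and 5.92 RPM in nascent triptolide (log2 change −1.26, adjusted p = 1.8e-06). Lack of overlap was a condition for naming these enhancers. The other largest falls were at chr11:43952001-43953000 (log2 change −1.21) and chr9:113324001-113325000 (−1.20). All 4 first appear in the 30 min peak list, and 3 of them are more than 100 kb from the nearest named TSS, at distances of 119651, 338098 and 383530 bp. The 4 largest rises were smaller, from 0.64 to 0.79, and the highest of their 2 h levels was 3.28 RPM.

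The change over 2 h was tested directly against that in DMSO. It was lower in triptolide at 379 enhancers (4.32%) and higher at 3 (0.0342%). The median enhancer changed by −0.24 in triptolide, by −0.13 in DRB and by 0.02 in DMSO. Over 20 RPM, 20 of 71 enhancers passed, and between 10 and 20 RPM 123 of 809 did. The number called was 102 without 2 h DMSO replicate 2, 164 without 2 h DMSO replicate 3, 253 without 2 h DMSO replicate 1 and 231 without nascent DMSO replicate 2. It was 122, 113 and 737 without nascent triptolide replicates 1, 2 and 3, and 225 and 219 without 2 h triptolide replicates 2 and 3. After centring, 20 enhancers were called. Against the change in DRB, limma called 0 enhancers (0.0%), with 849 at an unadjusted p under 0.05, and limma-voom also called 0. DRB itself gave 21 lower enhancers over its 2 h (0.239%), and DMSO gave 0 with limma (498 at an unadjusted p under 0.05) and 0 with limma-voom.

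Few TSSs passed the same test. Against the DMSO change, 7 TSS windows were lower (0.0231%) and 1 higher (0.0033%), with 3502 at an unadjusted p under 0.05. The named ones, given because there were few and chosen after their values were seen, were Phyh, Hsd17b11, Dapk3, Nqo2 and a window shared by Gm52878 and Mir3098. Dapk3, a death-associated kinase gene, had 10.6, 9.07 and 9.26 RPM at 2 h triptolide, against 17.8, 18.5 and 17.5 RPM in nascent triptolide (log2 change −0.83). With DMSO it had 36.5, 42.2 and 39.6 RPM at 2 h, against 33.5, 41.7 and 41.5 RPM in nascent, so the nascent triptolide libraries already lay below every DMSO library. Hsd17b11, a steroid dehydrogenase gene of lipid droplets, had 14.3, 13.6 and 14.5 RPM at 2 h triptolide, against 22.8, 22.1 and 23.5 RPM in nascent triptolide (log2 change −0.66). Phyh, of peroxisomal fatty acid oxidation, had 5.64, 4.54 and 5.71 RPM at 2 h triptolide, against 9.69, 9.61 and 9.89 RPM in nascent triptolide (log2 change −0.77), and 10.8, 11 and 9.87 RPM at 2 h DMSO, against 7.47, 7.66 and 8.92 RPM in nascent DMSO. The count of 8 went to 0 after centring or without the variance trend, to 2 without the filter on low windows, and to 38 with limma-voom. It was 0 without 2 h triptolide replicate 2, nascent triptolide replicate 1 or 2, 2 h DMSO replicate 1 or 2, or nascent DMSO replicate 2. It was 1 without nascent triptolide replicate 3 or 2 h DMSO replicate 3, 5 without nascent DMSO replicate 1 or 3, and 12 without 2 h triptolide replicate 1.

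Against the DRB change, 5 TSS windows were lower (0.0165%), among them Zcchc14, Mms19 and 2 starts of Sh2d5 that share a window, also named after their values were seen. This count depended on the settings. It was 0 after centring, without the filter on low windows and without the variance trend, 12 with means of 3 windows, 112 with a pseudocount of 0.5 RPM, 214 with a replicate block, 601 at a mean of at least 1 RPM, 726 with limma-voom and 978 when scaled to background windows. It was 0 without 2 h triptolide replicate 2, any of the 3 nascent triptolide replicates, 2 h DRB replicate 3 or nascent DRB replicate 2 or 3, and 1 without 2 h triptolide replicate 3 or 2 h DRB replicate 2. Without 2 h triptolide replicate 1, 2 h DRB replicate 1 or nascent DRB replicate 1 it was 385, 181 and 77. Mms19, a factor of cytosolic iron-sulfur cluster assembly, had 9.33, 7.81 and 11.3 RPM at 2 h triptolide, against 14.8, 14.9 and 15.3 RPM in nascent triptolide (log2 change −0.62). With DRB it had 16.8, 14.4 and 18.9 RPM at 2 h, against 13.8, 11.6 and 12.4 RPM in nascent. The 3 TSSs that DRB changed over its own 2 h were Ifna13, Lrrc2 and Lrrc75a. At Lrrc75a DRB had 1.05, 2.49 and 1.15 RPM at 2 h, against 3.37, 4.22 and 5.65 RPM in nascent (log2 change −1.10). In triptolide Lrrc75a was at 1.73, 2.77 and 2.16 RPM at 2 h, against 1.62, 2.23 and 2.65 RPM in nascent, while the 6 DMSO libraries held 18.7 to 36.5 RPM.

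Other peaks gave 85 windows whose change was lower in triptolide than in DMSO (0.0621%) and 0 that were higher by limma, where limma-voom gave 210 lower and 6 higher. The number called was 16 without 2 h triptolide replicate 2, 20 and 8 without nascent triptolide replicates 1 and 2, and 6 and 16 without 2 h DMSO replicates 2 and 3. It was 200 without 2 h triptolide replicate 1, 160 without nascent triptolide replicate 3 and 375 without nascent DMSO replicate 3, and after centring it was 6. The largest fall over time was at chr7:139727001-139728000, with 1.61, 0.252 and 0.772 RPM at 2 h triptolide, against 4.14, 4.34 and 2.58 RPM in nascent triptolide (log2 change −1.36, adjusted p = 5.5e-05). The window at chr3:126775501-126776500 had 1.5, 0.756 and 1.70 RPM at 2 h, against 5.35, 4.69 and 4.11 RPM in nascent (log2 change −1.32, and −1.79 against the DMSO change, adjusted p = 0.0033). Lack of overlap was a condition for naming these peaks too. Among rises, chr5:32710001-32711000 had 8.06, 8.07 and 5.71 RPM at 2 h, against 2.32, 2.70 and 2.51 RPM in nascent (log2 change 1.23, adjusted p = 2.3e-04). With DRB that window had 4.65, 4.43 and 4.89 RPM at 2 h, against 3.37, 2.43 and 2.38 RPM in nascent (log2 change 0.61, adjusted p = 0.23), and its change against DMSO did not pass (adjusted p = 0.075). The rise at chr18:42523501-42524500, with 4.72, 4.28 and 6.25 RPM at 2 h triptolide against 1.72, 2.11 and 1.46 RPM in nascent triptolide, was also called in DRB (log2 change 1.13 in triptolide and 1.81 in DRB). DRB called 66 other peaks lower (0.0482%) and 32 higher (0.0234%) over time, but 107 lower and 134 higher with limma-voom, 24 lower and 45 higher after centring, and 6 lower and 7 higher without nascent DRB replicate 1, so which direction was more common rested on these choices. DMSO gave 1 lower (0.000731%) and 0 higher.

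The gain between sites was uneven along the genome. Background windows in 1 Mb bins with over 20 TSSs averaged 0.364 ± 0.019 RPM in the 2 h triptolide libraries and 0.288 ± 0.026 RPM in the nascent triptolide libraries (SD, n = 3 each), a fold of 1.27. The fold was 1.22 with 11 to 20 TSSs, 1.17 with 6 to 10, 1.12 with 3 to 5 and 1.11 with 0 to 2. When each bin was taken as a share of a library's background reads, 228 of 2611 bins were higher at 2 h (8.73%) and 158 lower (6.05%) by limma. Bins called higher held a median of 16 TSSs, bins called lower 6 and the rest 8. Across the 2611 bins the change correlated with the number of TSSs at Spearman 0.50 in triptolide and 0.17 in DMSO, given as a description, since bins share libraries and neighbours. DMSO and DRB gave 0 called bins each over their 2 h (28 and 360 at an unadjusted p under 0.05). Against the change in DMSO 6 bins were higher, and against that in DRB 21 were higher (0.804%) and 2 lower (0.0766%). The first count was 114 without nascent triptolide replicate 3 (92 higher and 22 lower), 33 with a replicate block, 5 without 2 h triptolide replicate 1 and 0 without any other triptolide or DMSO library. The 23 bins that differed from DRB were 7 without 2 h triptolide replicate 1 or 2, 5 and 43 without nascent triptolide replicates 1 and 2, 1 and 0 without 2 h DRB replicates 2 and 3, and 0 without nascent DRB replicate 1 or 2. The number of bins called over time in triptolide was 386, and it was 93 without 2 h triptolide replicate 2 and 190 and 194 without nascent triptolide replicates 1 and 2. Without 2 h triptolide replicate 3 there were 257 higher and 263 lower, and without nascent triptolide replicate 3 there were 386 higher and 533 lower, so which direction was more common rested on these libraries.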

How the data were processed

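Accessibility was measured in the unbound fraction of repli-ATAC-seq. Per the submitters' processing notes, reads were handled with Trim Galore 0.4.2 and Bowtie2 2.2.6.2 on mm10; parameters, the treatment of duplicate and multiply mapped reads and any shift of Tn5 ends are not stated in the sources used here. The deposited table holds log2(RPM + 1), per the file headers, in 5451088 windows of 1000 bp every 500 bp. RPM was recovered by undoing the log2, and reads from each library's smallest step (100% of values whole within 0.1 read). The deposited peak lists give positions only, with no height.

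Each TSS, enhancer centre or peak centre took its nearest window; windows above 0 in at least 3 of the 18 unbound libraries were tested with limma 3.58.1 (trended variance, 1 mean per group, R 4.3.3), adjusted by Benjamini-Hochberg over all windows of a class. Background windows lay over 1000 bp from all sites. Per-library measures were compared by two-sided exact permutation. TSSs took RefSeq names within 1000 bp of a start, or within 5000 bp inside a coding gene. Named genes are the 12 largest rises and 12 largest falls among called windows without overlap at a mean of at least 1 RPM, the 4 such enhancers and 4 other peaks per direction, up to 3 members of each list by p, and a few set genes. Members and lists were chosen with earlier results of these data known. Alternatives were centring, background scaling, another pseudocount (0.5), filters, limma-voom on recovered reads, no trend, 3 windows, a replicate block, the 6 triptolide libraries alone and leaving out each library. The fits were tested on simulated data. Captured fractions and spike-in tables were not used here, and 1 TSS is not reported here.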

Additional observations from a re-analysis of the deposited data

Results flagged for a closer look

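Windows and bins are listed here because their change over 2 h differed between triptolide and another treatment by a test of the difference itself (limma, adjusted p under 0.05). Against the change in DMSO these were 8 TSS windows, 382 enhancer windows, 85 other peak windows and 6 bins of 1 Mb. Against the change in DRB these were 5 TSS windows and 23 bins. The TSS count against DRB ran from 0 to 978 under other settings and from 0 to 385 without 1 triptolide or DRB library, and the bins from 0 to 114 (DMSO) and 0 to 43 (DRB) without 1 library. Among the windows named for their size, 4 enhancers and 2 other peaks differed from DMSO. At chr12:39740501-39741500 the triptolide change minus the DMSO change was −1.45, at chr13:102106001-102107000 it was −1.63, at chr11:43952001-43953000 it was −1.22 and at chr9:113324001-113325000 it was −1.28. At the other peaks chr15:94719001-94720000 and chr3:126775501-126776500 it was −1.60 and −1.79. At chr13:102106001-102107000 the libraries had 10.8, 12 and 10.3 RPM at 2 h DMSO, against 7.92, 7.23 and 9.82 RPM in nascent DMSO, so that the 2 treatments moved in opposite directions there, although the DMSO change did not pass (adjusted p = 0.85). The peak at chr15:94719001-94720000 had 0.806, 0 and 0.386 RPM at 2 h triptolide, against 3.23, 1.99 and 2.30 RPM in nascent triptolide.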

How the results depend on the processing

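The ratios to background, the S5P margin and the downstream ratio kept their direction in every alternative run, at 0.647 to 0.684 (TSSs), 0.590 to 0.661 (enhancers), 0.686 to 0.733 (other peaks), −0.27 to −0.21 and 0.025 to 0.054 when 1 library was left out. Counts moved more, and the causes were not tested. For TSSs, enhancers and other peaks, called windows over time numbered 3395, 1564 and 3686. Centred on the median they were 1142, 319 and 402, scaled to background 8917, 3326 and 18061, and with triptolide libraries only 0, 913 and 3432. Other peaks had 651 without the trend. Leaving out 1 triptolide library gave 956 to 3677, 762 to 2103 and 754 to 3740. DMSO and DRB libraries enter this contrast only through the shared variance, and without 1 of them the counts were 3105 to 3989, 1444 to 1698 and 3171 to 5663. For the change against DMSO the counts were 8, 382 and 85; centred 0, 20 and 6; without the trend 0, 58 and 0; with limma-voom 38, 407 and 216; scaled to background 7, 1063 and 799; TSSs without a filter 2; and without 1 library 0 to 12, 102 to 737 and 6 to 375. Bins of 1 Mb numbered 386, and 54 with triptolide libraries only, 770 as 500 kb bins, and 93 to 919 without 1 triptolide library, with lower bins more common without replicate 3 of either time (520 and 919). Alternatives for the next counts were chosen after seeing the data. TSSs that differed from DRB numbered 5, and 0 centred, without a filter or without the trend, 978 scaled to background, 112 with a pseudocount of 0.5 RPM, 601 at a mean of at least 1 RPM, 726 with limma-voom, 12 with 3 windows, 214 with a replicate block and 0 to 385 without 1 library. Other peaks called in DRB over time numbered 98, and 59 with a pseudocount of 0.5 RPM, 5 without the trend, 244 with 3 windows, 499 with a replicate block and 6 to 100 without 1 DRB library. Higher ones became more common centred (69 in all), with limma-voom (241) and without nascent DRB replicate 1 (13). Bins that differed from DMSO numbered 6, 33 with a replicate block and 0 to 114 without 1 library, and from DRB 23 and 0 to 43. Same-numbered triptolide libraries had correlations of deviations of 0.20, −0.04 and 0.05, against −0.17 to 0.10 between differently numbered ones. So few correlations cannot decide whether the numbers pair the libraries. With a replicate block the counts were 4041 TSSs, 2017 enhancers, 6249 other peaks and 527 bins, and against DMSO 11, 748 and 600. Of 91 named windows that passed, 39 kept the call whichever triptolide library was left out, 63 kept it centred and 14 with triptolide libraries only, and none changed direction. Of those that had not passed, Tcstv3 ran from −0.00705 (without 2 h replicate 3) to 0.19 (without 2 h replicate 2), and Polr2a from −0.33 (without nascent replicate 3) to 0.0205 (without nascent replicate 1). An interaction cannot be had from triptolide libraries only. Depth limits windows near 3 reads, most of all in 2 h replicate 2.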

Other observations

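DRB called 32 other peaks higher over its 2 h (0.0234%) and 66 lower (0.0482%), where DMSO called 0 higher and 1 lower. With limma-voom DRB gave 134 higher and 107 lower, and after centring 45 higher and 24 lower. The other peak at chr18:42523501-42524500 had 4.50, 6.09 and 9.58 RPM at 2 h DRB, against 0.879, 0.895 and 1.68 RPM in nascent DRB, and 0.648, 1.32 and 0.940 RPM at 2 h DMSO, against 0.149, 0.425 and 0.900 RPM in nascent DMSO. Its change in triptolide did not pass the test against that in DRB (adjusted p = 0.72) or DMSO (adjusted p = 0.39). Background windows held a share of reads of 38.0% ± 2.5 at 2 h DRB and 36.4% ± 1.5 in nascent DRB (SD, n = 3 each), and 34.9% ± 2.1 at 2 h DMSO and 33.8% ± 0.71 in nascent DMSO.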
